A study of Mus musculus with 17 samples.

Results

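The nuclear genes for the proteins of the mitochondrial ribosome were followed through 17 poly(A)-selected RNA-seq libraries of mouse embryonic stem cells. Members were taken by symbol, as every annotated gene whose symbol starts with Mrpl or Mrps followed by a digit, with the 5 pseudogenes so named left out. The rule found 78 genes among the 55416 in the count files, 52083 of which carry a symbol. By role, 51 encode proteins of the large subunit and 26 proteins of the small subunit. The remaining gene, Mrps36, keeps a ribosomal symbol although its product is now known as a part of the 2-oxoglutarate dehydrogenase complex. Among the large-subunit genes 30 have a bacterial counterpart and 21 are specific to mitochondria, and among the small-subunit genes these numbers are 16 and 10.

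The mitochondrial ribosome makes the few respiratory chain proteins that the mitochondrial genome encodes. Its RNA comes from that genome, but all its proteins are made by cytosolic ribosomes from nuclear-encoded mRNAs and are then imported, many by way of an amino-terminal presequence rich in basic residues and poor in acidic ones. Cytosolic ribosomes can work free in the cytosol, on the endoplasmic reticulum (ER) or at the mitochondrial surface. The count files show how much of each such mRNA was recovered with ribosomes tagged near the ER, relative to the whole cell. The series has no library of RNA from all ribosomes or from ribosomes away from the ER. In this ratio, binding to ribosomes and place at the ER therefore cannot be told apart.

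All libraries came from 1 line, E14Tg2a.4 embryonic stem cells that carry an affinity tag (FLAG, TEV site and AviTag) on Rpl31, a protein of the large subunit of the cytosolic ribosome. ALIBi, a biotinylation system split into an N- and a C-terminal fragment and here directed to the ER, marked tagged ribosomes near it, and the marked ribosomes were purified with their RNA. An aliquot of each lysate taken before purification gave the whole-cell library. Cells received siRNA against Nmd3, the export adaptor of the cytosolic large subunit, siRNA against Gnl3, the nucleolar GTPase nucleostemin, or a scramble siRNA. The ER ribosome-bound groups held 3 Nmd3, 3 Gnl3 and 2 scramble libraries, and the whole-cell groups 3, 3 and 3, labelled as biological replicates. The labels exclude 1 Nmd3 whole-cell library (replicate 2) and 1 Gnl3 whole-cell library (replicate 3) as outliers, so the tests rest on the other 15, with 2 libraries in each of those groups.

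Depth was 15198736 to 29904256 gene counts per library used, and all 78 members passed the filter on low counts in every fit. Knockdown was seen in each labelled group: Nmd3 had 25.0, 24.3 and 25.0 CPM (counts scaled to library size) in Nmd3 ER libraries, against 123 and 119 CPM in scramble ER libraries. Gnl3 had 31.1, 26.5 and 29.3 CPM in Gnl3 ER libraries, against 170 and 176 CPM in scramble ER libraries. In whole-cell libraries the log2 fold change of Nmd3 with its siRNA was -1.81 and that of Gnl3 with its own was -2.10 (adjusted p = 7.97e-19 and 5.50e-13, edgeR). All 10 embryonic stem cell markers were above 1 CPM in every group, with a summed level of at least 6760 CPM, and the summed level of 8 fibroblast or feeder markers was at most 41.1 CPM. It was at most 14.7 CPM for 6 primitive endoderm markers and 55.0 CPM for 7 epiblast and germ layer markers. In each group 3 feeder, 3 to 4 primitive endoderm and 4 to 5 epiblast and germ layer markers reached 1 CPM. Of the retained libraries 2 stood somewhat apart: Nmd3 whole-cell replicate 1 had 423 CPM of the tagged gene Rpl31, against 692 to 746 CPM in scramble whole-cell libraries, and 1.146% mitochondrially encoded counts where the other whole-cell libraries kept had at least 1.86%. In Nmd3 ER replicate 2, Gnl3 stood at 265 CPM, against 163 and 178 CPM in the other Nmd3 ER libraries.

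The start of the coding region is shown for 6 members: the 3 with the highest ER to whole-cell ratio in scramble cells, the 2 with the lowest, and Mrpl36, whose level changed after Nmd3 siRNA. Each line gives the first 60 coding bases of the longest coding transcript (GENCODE M21, GRCm38 assembly), 5′ to 3′, with arginine codons in capitals. Mrpl55 lies on chromosome 11, Mrpl52 on 14, Mrpl34 on 8, Mrpl48 on 7, Mrpl19 on 6 and Mrpl36 on 13.
Mrpl55: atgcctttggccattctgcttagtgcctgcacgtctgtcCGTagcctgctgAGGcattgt
Mrpl52: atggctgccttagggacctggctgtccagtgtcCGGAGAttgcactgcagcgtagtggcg
Mrpl34: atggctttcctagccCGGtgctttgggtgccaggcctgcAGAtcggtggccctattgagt
Mrpl48: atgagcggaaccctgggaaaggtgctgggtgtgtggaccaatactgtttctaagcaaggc
Mrpl19: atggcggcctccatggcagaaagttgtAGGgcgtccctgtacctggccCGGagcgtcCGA
Mrpl36: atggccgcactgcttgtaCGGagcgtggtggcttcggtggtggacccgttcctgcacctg

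These starts differ in how many arginine codons they hold. The stretch shown has 2 arginine codons in Mrpl55, Mrpl52 and Mrpl34, 0 in Mrpl48, 3 in Mrpl19 and 1 in Mrpl36. Over the 30 codons after the start codon, the 78 members had a median of 4 arginine codons, against 2 among 14179 protein-coding genes tested for which a coding sequence was matched. They had a median of 1 codon for aspartate or glutamate, against 3. Basic minus acidic codons came out above 0 in 78 of 78 members (100.0%), against 47.4% of those protein-coding genes, and 38 members (48.7%) had no acidic codon there, against 11.1%. The basic surplus had no clear relation to the ER ratio within the family: across the 78 members Spearman's rho between it and the scramble log2 ratio was -0.09, and for arginine codons alone -0.06, as descriptions over genes that share the same libraries.

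Levels of the family spread over a wide range and their order was much the same in each group. Per kilobase of coding sequence, the median member stood at 104 CPM in scramble ER libraries, against 86.9 CPM in scramble whole-cell libraries. Mrpl17, the counterpart of bacterial L17, Mrpl42, a mitochondria-specific protein, and Mrpl12, the stalk protein that meets translation factors, were among the 4 highest in every group, with the mitochondria-specific Mrpl51 as the other. In scramble ER libraries they had 368 ± 6.80, 366 ± 5.12 and 336 ± 0.928 CPM per coding kilobase (SD, n = 2). In scramble whole-cell libraries they had 257 ± 8.24, 298 ± 14.2 and 244 ± 12.1 CPM per coding kilobase (SD, n = 3), so Mrpl17 and Mrpl12 did not differ there beyond their spread. At the bottom stood Mrpl53, with 2.40 ± 0.167 CPM per coding kilobase in scramble ER libraries (SD, n = 2) and 1.82 ± 0.192 in scramble whole-cell libraries (SD, n = 3). These rest on 15 to 17 counts in scramble ER libraries and 10 to 15 counts in scramble whole-cell libraries, so nothing can be said of its changes. The next lowest were Mrpl19, the counterpart of bacterial L19, at 31.5 ± 1.07 and Mrps22, a mitochondria-specific small-subunit protein, at 31.5 ± 1.16 CPM per coding kilobase in scramble ER libraries. Replicates lay close together, with a median SD over members of 0.041 to 0.083 log2 CPM in the 6 groups.

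The first comparison asked which mRNAs were relatively richer in ER ribosome-bound RNA than in the whole cell, within each siRNA. Most members were. In scramble cells 63 of 78 were higher in ER ribosome-bound RNA and 0 were lower (edgeR, adjusted p under 0.05 over 18271 genes), while 25.1% of all genes tested were called higher and 25.3% lower. After Nmd3 siRNA 57 members were higher and 1 was lower, beside 24.5% and 25.6% of all genes. After Gnl3 siRNA 53 were higher and 0 lower, beside 23.3% and 24.9% of all genes. The median member had a log2 ratio of 0.35 after Nmd3 siRNA, 0.30 after Gnl3 siRNA and 0.38 with scramble siRNA, against 0.02 for all genes tested with scramble siRNA. Together the members made up 0.557% to 0.593% of gene counts in ER ribosome-bound libraries and 0.455% to 0.476% in the retained whole-cell libraries, and these ranges did not overlap. The calls depended on leaving out the excluded libraries: with all 17 in the fit 1 member was called after Nmd3 siRNA, 2 after Gnl3 siRNA and 1 with scramble siRNA, beside 15.2%, 24.5% and 12.7% of the 18525 genes tested in that fit. The median log2 ratio of the members was then -0.20 after Nmd3 siRNA, 0.34 after Gnl3 siRNA and 0.38 with scramble siRNA. All groups share 1 estimate of the spread between replicates, and this coefficient of variation was 0.236 in that fit, against 0.0625 without the excluded libraries. No scramble library was added. These levels are shares of bulk libraries, in which fewer cells of a type and less RNA per cell cannot be told apart.

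**Figure D1:**
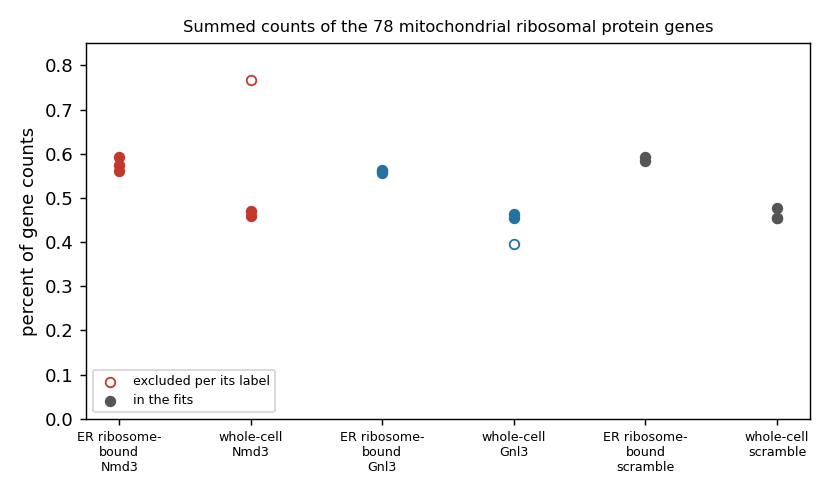
Summed counts of the 78 members as a percent of gene counts (vertical axis) in each library, by siRNA and fraction. Filled points were used in the fits and lie at 0.557% to 0.593% for ER ribosome-bound libraries and 0.455% to 0.476% for whole-cell libraries, while the open points are the libraries excluded by their labels, at 0.766% (Nmd3) and 0.396% (Gnl3).

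The 3 siRNA groups share no library, and 50 members were called higher in all of them. In 68 members the log2 ratio was above 0 in all 3, and 11 members were called in none: Mrpl1, Mrpl19, Mrpl42, Mrpl50, Mrpl53, Mrps2, Mrps5, Mrps9, Mrps25, Mrps27 and Mrps30. The share of all genes that met these conditions is not given here, so such counts alone do not set the family apart. Across members the ratios after Nmd3 and Gnl3 siRNA had a Pearson r of 0.84, those after Nmd3 siRNA and with scramble siRNA 0.77, and those after Gnl3 siRNA and with scramble siRNA 0.88. Members of both subunits were among those called. With scramble siRNA 28 of 30 large-subunit members with a bacterial counterpart were higher, with a median log2 ratio of 0.39. The numbers were 14 of 21 and 0.34 for mitochondria-specific large-subunit members, 13 of 16 and 0.44 for small-subunit members with a bacterial counterpart, and 7 of 10 and 0.29 for mitochondria-specific small-subunit members. Called higher were 25.1% of all genes and 45.8% of protein-coding genes within the members' range of coding lengths. With the coding length correction described below, these 4 classes, in the same order, had 9, 3, 3 and 0 members higher and 2, 2, 1 and 2 lower. All genes then had 25.3% higher and 21.2% lower.

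**Figure D2:**
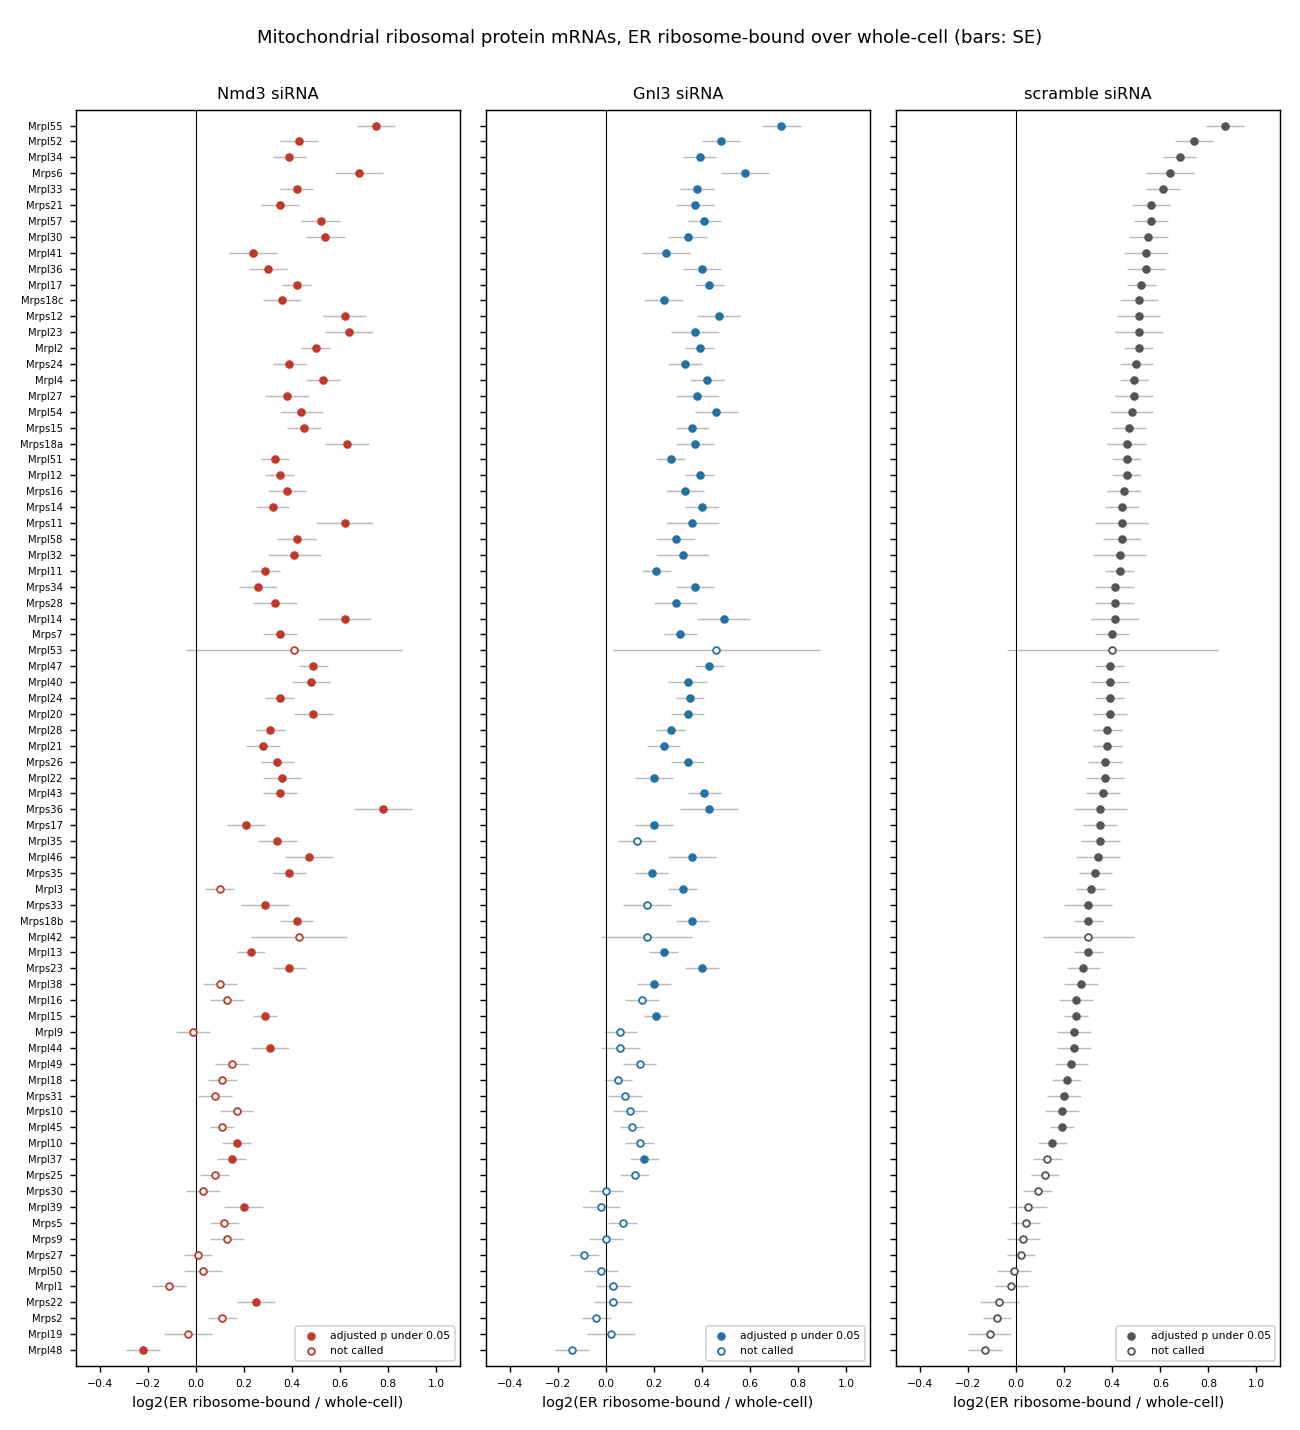
Log2 ratio of ER ribosome-bound over whole-cell level (horizontal axis, bars are SE) of each of the 78 members, ordered by the scramble ratio, with 1 panel per siRNA. Filled points passed an adjusted p of 0.05 and open points did not. Nearly all points lie right of 0, from Mrpl55 at 0.87 to Mrpl48 at -0.13 with scramble siRNA.

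At the top with scramble siRNA stood Mrpl55, Mrpl52 and Mrpl34. Mrpl55, which corresponds to bacterial L31, had 61.1 and 50.1 CPM in scramble ER libraries, against 30.2, 31.8 and 29.1 CPM in scramble whole-cell libraries. Its log2 ratio was 0.87 (SE 0.08, adjusted p = 1.63e-11), and it was 0.75 after Nmd3 siRNA and 0.73 after Gnl3 siRNA, and every ER library lay above every retained whole-cell library. Mrpl52, specific to mitochondria, had 57.4 and 56.1 CPM in scramble ER libraries, against 31.6, 35.5 and 34.9 CPM in scramble whole-cell libraries, a log2 ratio of 0.74 (SE 0.08, adjusted p = 1.13e-09). Mrpl34, the counterpart of bacterial L34, had 74.2 and 68.5 CPM in scramble ER libraries, against 41.5, 47.7 and 44.3 CPM in scramble whole-cell libraries, a log2 ratio of 0.68 (SE 0.07, adjusted p = 1.84e-10). Mrps6 at 0.64, Mrpl33 at 0.61 and Mrps21 at 0.56 followed, all counterparts of bacterial proteins of the same number.

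After Nmd3 siRNA the highest log2 ratio was that of Mrps36, at 0.78 (SE 0.12), followed by Mrpl55, Mrps6 at 0.68, Mrpl23 at 0.64, Mrps18a at 0.63 and Mrps12 at 0.62. Mrps36 had 26.7, 23.4 and 24.2 CPM in Nmd3 ER libraries, against 11.6 and 17.1 CPM in Nmd3 whole-cell libraries. The lower of these whole-cell values came from replicate 1, the library that stood apart. At the low end of the called members after Nmd3 siRNA were Mrpl37 at 0.15, Mrpl10 at 0.17, Mrpl39 at 0.20, Mrps17 at 0.21 and Mrpl13 at 0.23, beside Mrpl48, which was lower. After Gnl3 siRNA Mrpl55, at 0.73, and Mrps6, at 0.58, were highest, followed by Mrpl14 at 0.49, Mrpl52 at 0.48, Mrps12 at 0.47 and Mrpl54 at 0.46. The 6 lowest called there were Mrpl37 at 0.16, Mrps35 at 0.19, Mrpl22, Mrpl38 and Mrps17 at 0.20, and Mrpl11 at 0.21.

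The lowest ratio was that of Mrpl48, a mitochondria-specific large-subunit protein. It had 51.9 and 46.2 CPM in scramble ER libraries, against 56.6, 52.3 and 52.5 CPM in scramble whole-cell libraries, a log2 ratio of -0.13 (SE 0.07, adjusted p = 0.117). After Nmd3 siRNA it had 46.2, 46.3 and 46.5 CPM in ER libraries, against 53.2 and 54.6 CPM in whole-cell libraries, and this log2 ratio of -0.22 was the only one called lower in the family (adjusted p = 0.00954). Without Nmd3 whole-cell replicate 3 it was -0.20 with an adjusted p of 0.0562. Mrpl48 is also the 1 member with a negative ratio under all 3 siRNAs. Mrpl19 at -0.11, Mrps2 at -0.08, Mrps22 at -0.07, Mrpl1 at -0.02 and Mrpl50 at -0.01 were the other negative values with scramble siRNA, and none of them passed the test.

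With scramble siRNA, members with well known roles lay between these ends. At the stalk of the large subunit, Mrpl12 averaged 203 ± 0.560 CPM in scramble ER libraries (SD, n = 2) and 147 ± 7.32 CPM in scramble whole-cell libraries (SD, n = 3), a log2 ratio of 0.46. Mrpl11, at the stalk base, was at 0.43, and Mrpl10, which carries Mrpl12, was at 0.15 (adjusted p = 0.04), among the 6 lowest called values. The others of those 6 were Mrps10 and Mrpl45 at 0.19, Mrps31 at 0.20, Mrpl18 at 0.21 and Mrpl49 at 0.23. Mrpl45 holds the ribosome to the inner membrane near the exit of the peptide tunnel. Mrpl3, a core protein of the large subunit, was at 0.31, Mrpl36 and Mrpl41 at 0.54, Mrpl44, which resembles ribonuclease III, at 0.24, and Mrpl58, a peptidyl-tRNA hydrolase that rescues stalled ribosomes, at 0.44.

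In the small subunit, Mrps12, the decoding-site protein known in bacteria as S12, averaged 52.7 ± 0.537 CPM in scramble ER libraries (SD, n = 2) and 37.0 ± 0.863 CPM in scramble whole-cell libraries (SD, n = 3), a log2 ratio of 0.51. Mrps7 was at 0.40 and Mrps34 at 0.41, both called higher. Mrps2 was not called, nor was the pentatricopeptide repeat protein Mrps27, at 0.02 with an SE of 0.06. The 3 relatives of bacterial S18 were all called higher: Mrps18a, whose product sits in the large subunit, at 0.46, Mrps18b at 0.30 and Mrps18c at 0.51. Mrps36, outside the ribosome, was at 0.35 (adjusted p = 0.0105). Of the 19 members with such roles 14 were called higher after Nmd3 siRNA, 13 after Gnl3 siRNA and 17 with scramble siRNA, with medians of 0.30, 0.29 and 0.40. Called higher among all genes were 24.5%, 23.3% and 25.1%. Among protein-coding genes within the members' range of coding lengths these shares were 42.8%, 40.9% and 45.8%.

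Coding length went along with these ratios. Members are short, with coding regions of 195 to 1326 bases and a median of 582, against a median of 1389 bases for the 14263 protein-coding genes tested. Across members Spearman's rho between coding length and the scramble log2 ratio was -0.64, and across all protein-coding genes -0.53. These are correlations across genes within the same libraries. In members of 300 to 450 bases the median log2 ratio was 0.47 (20 members), against 0.42 for all protein-coding genes of that length. It was 0.39 against 0.37 at 450 to 600 bases (18 members), 0.37 against 0.28 at 600 to 900 bases (22 members), and 0.13 against 0.15 at 900 to 1400 bases (15 members). Only 3 members were shorter, with a median of 0.61 against 0.46. Of 6697 protein-coding genes within the members' range of coding lengths, 45.8% were called higher and 8.4% lower with scramble siRNA, with a median log2 ratio of 0.26.

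**Figure D3:**
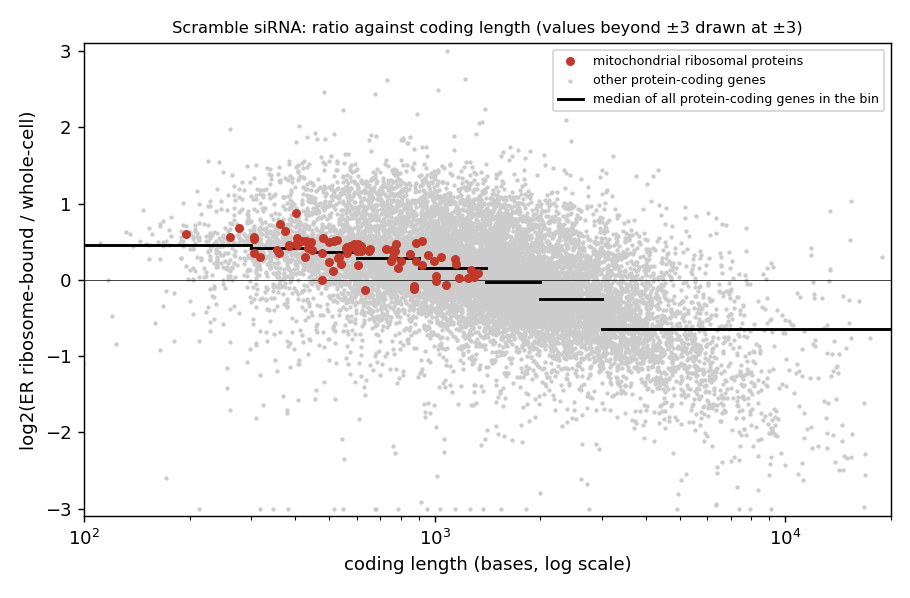
Log2 ratio of ER ribosome-bound over whole-cell level with scramble siRNA (vertical axis) against coding length in bases (log axis). Red points are the 78 members, grey points other protein-coding genes, and black bars the median of all protein-coding genes in each length bin. The members lie along the bars, from a median of 0.61 below 300 bases to 0.13 at 900 to 1400 bases.

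When each library's trend with coding length was taken off before the test, most of the calls in the family ended. With scramble siRNA 15 members were higher and 7 lower, beside 25.3% and 21.2% of the 14272 genes tested. After Nmd3 siRNA the numbers were 20 and 6, beside 25.6% and 21.4%, and after Gnl3 siRNA 8 and 7, beside 24.5% and 21.0%. As shares of the 78 members, these are about equal to or below those of all genes in both directions. Mrpl2 and Mrpl4, both core large-subunit proteins, Mrpl17, Mrpl55 and Mrps6 were called higher in all 3 siRNAs on this scale, and Mrpl48, Mrpl50 and Mrps25 lower in all 3. These 8 were picked out after their values were seen, and the share of all genes called in all 3 on this scale is not given here. Mrpl55 kept log2 ratios of 0.44 after Nmd3 siRNA, 0.45 after Gnl3 siRNA and 0.52 with scramble siRNA, while Mrpl48 came to -0.48, -0.39 and -0.42. Taking off the trend with annotated mRNA length instead gave 21 higher and 8 lower with scramble siRNA, beside 23.1% and 24.5% of all genes, and a partly different set: Mrpl55 and Mrpl17 were higher in all 3 siRNAs under both corrections, and 0 members were lower in all 3 under both. Mrpl48, Mrpl17 and Mrps25 have annotated mRNAs of 4285, 7300 and 6073 bases, and Mrps25 turned to 0.56 with scramble siRNA on that scale.

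GC content also varied with the ratio. Spearman's rho between the GC share of the mRNA and the scramble log2 ratio was 0.38 across members and 0.31 across 14179 protein-coding genes. Its part in the result was not tested.

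Other genes of mitochondrial translation did not all share the family's ratios. Among the mitochondrial ribosome proteins whose symbols fall outside the rule, Aurkaip1 was at 0.70, Gadd45gip1 at 0.43, Dap3 at 0.38 and Chchd1 at 0.32 with scramble siRNA, all called higher. Ptcd3, a pentatricopeptide repeat protein of the small subunit, was called lower at -0.53 (adjusted p = 1.63e-08), with 61.6 and 68.5 CPM in scramble ER libraries, against 96.8, 94.2 and 91.6 CPM in scramble whole-cell libraries. Of all genes tested 25.1% were called higher and 25.3% lower with scramble siRNA. Of 25 assembly and rRNA modification factors 7 were higher and 3 lower, with a median of 0.06. Of 16 mitochondrial translation factors 5 were higher and 4 lower (median 0.12), and of 20 mitochondrial aminoacyl-tRNA synthetases 1 was higher and 4 lower (median -0.12). On the scale corrected for coding length their medians were 0.05, 0.01 and -0.05, beside 0.09 for the family and 0.04 for all genes.

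**Figure D4:**
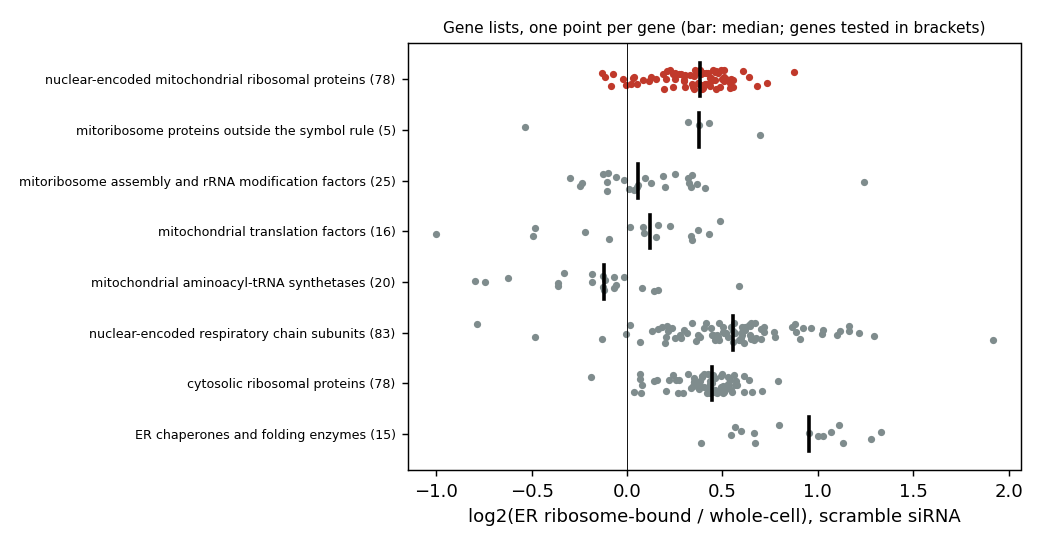
Log2 ratio of ER ribosome-bound over whole-cell level with scramble siRNA (horizontal axis) for each gene of 8 lists, with the number tested in brackets and a bar at the median. The family (red, median 0.38) lies near the cytosolic ribosomal proteins (0.45) and below the ER chaperones (0.95), and the aminoacyl-tRNA synthetases lie lowest (-0.12).

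For scale, 15 of 15 ER chaperones and folding enzymes were higher, with a median of 0.95 before and 0.87 after the coding length correction. Nuclear-encoded respiratory chain subunits had 72 of 83 genes higher (median 0.56) and cytosolic ribosomal proteins 70 of 78 (median 0.45), which the length correction brought to 0.21 and 0.11. Mitochondrially encoded mRNAs, made and translated inside the organelle, were all lower, 11 of 11, with a median of -6.93. All mitochondrially encoded genes, those for rRNA and tRNA included, took up 0.02% to 0.024% of counts in ER ribosome-bound libraries and 1.146% to 2.031% in the retained whole-cell libraries.

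For 22 members the annotation places exons of an opposite-strand gene over their own. The libraries were made with a strand-marking kit, but the strand setting of the counting is not given in the sources used here. Partners carried counts: Oaz3, a testis-specific gene opposite Mrpl9, had 273 to 284 counts in scramble ER libraries and 236 to 324 in scramble whole-cell libraries, where Mrpl9 had 1255 to 1270 and 887 to 1220. Of the 56 members with no such overlap 47 were higher with scramble siRNA (median 0.40), and of the 22 with one 16 were (median 0.33). Mrpl48 lies opposite Rab6a and Mrpl19 opposite Gcfc2, while Mrpl50 has no such partner.

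The second comparison asked whether either knockdown changed the ER to whole-cell ratio. No member passed the test of the difference, by edgeR or by DESeq2, and edgeR called 0% of the 18271 genes. At an unadjusted p under 0.05 edgeR counted 9 of 78 members for Nmd3 minus scramble and 7 for Gnl3 minus scramble, and DESeq2 7 and 4. Over all 18271 genes edgeR counted 1078 and 649 at that threshold. The median difference in log2 ratio was -0.03 for Nmd3 minus scramble and -0.09 for Gnl3 minus scramble, where all genes had 0.01 and 0.00 and protein-coding genes within the members' range of coding lengths -0.01 and -0.03. With the trend with mRNA length taken off, the members' median for Gnl3 minus scramble was -0.03. The SE of a member's difference had a median of 0.10, and differences well above that size could also go uncalled. Nmd3 itself, at -0.47 (SE 0.09) for Nmd3 minus scramble, had an edgeR adjusted p of 0.0765. Among members of known role the difference ran from -0.30 (Mrpl41) to 0.43 (Mrps36) for Nmd3 and from -0.30 (Mrpl41) to 0.08 (Mrps36) for Gnl3, both minus scramble. The lowest adjusted p for Nmd3 minus scramble were at 0.79, among them Mrpl52 at -0.31 (SE 0.12). Without Nmd3 whole-cell replicate 3, which leaves the library that stood apart as the sole Nmd3 whole-cell sample, 4 members were called, beside 1.6% of all genes: Mrps36, Mrps11 and Mrpl39 with a higher and Mrpl52 with a lower ratio.

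The third comparison set the knockdowns against scramble within ER ribosome-bound RNA. After Nmd3 siRNA 1 member fell and 0 rose, where 0.516% of the 17632 genes tested fell and 0.652% rose. This was Mrpl36 (ENSMUSG00000021607.10), the counterpart of the small zinc-binding bacterial protein L36. It had 38.8, 41.3 and 38.4 CPM in Nmd3 ER libraries, 52.3, 53.7 and 51.8 CPM in Gnl3 ER libraries, and 58.1 and 56.3 CPM in scramble ER libraries. The Nmd3 values lay below all others on ER ribosomes. The log2 fold change was -0.53 against scramble (SE 0.07, adjusted p = 6.11e-05) and -0.41 against Gnl3 siRNA (SE 0.06, adjusted p = 2.13e-04). It passed the test in each of the 15 settings run, leave-one-out fits included, with adjusted p of 1.28e-09 to 0.0113 against scramble.

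In whole-cell RNA Mrpl36 had 32.8 and 31.5 CPM after Nmd3 siRNA, against 37.5, 43.3 and 37.3 CPM with scramble siRNA. These groups did not overlap either, but the log2 fold change of -0.28 (SE 0.09) had an adjusted p of 0.251, and the excluded Nmd3 whole-cell library had 66.1 CPM. An exon of Mrpl36 overlaps Ndufs6, a subunit of respiratory complex I on the other strand. Ndufs6 had 114, 114 and 114 CPM in Nmd3 ER libraries, against 120 and 119 CPM in scramble ER libraries, a log2 fold change of -0.06 (SE 0.06, adjusted p = 0.735).

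**Figure D5:**
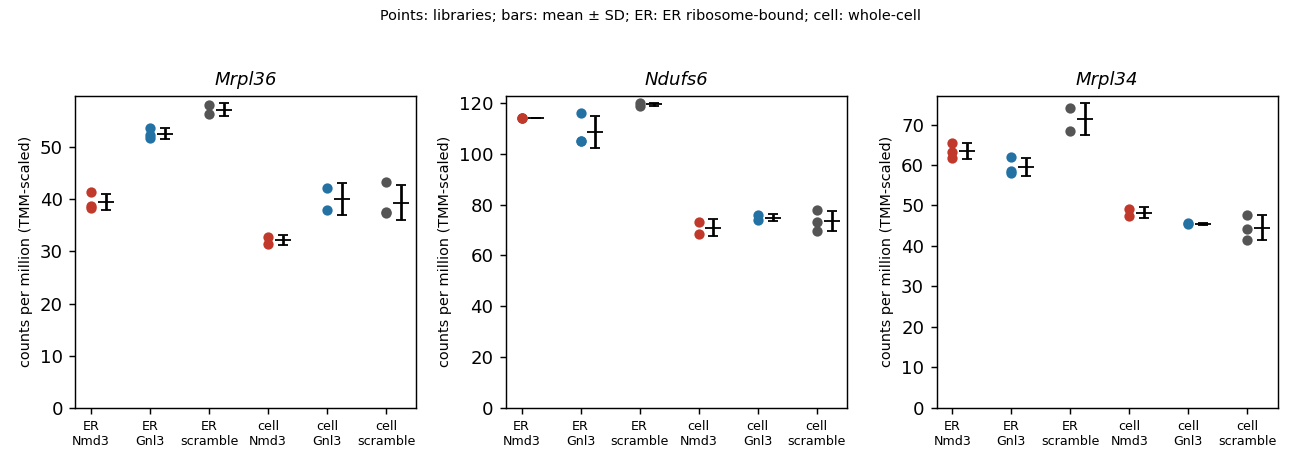
TMM-scaled CPM (vertical axis) of Mrpl36, its opposite-strand neighbour Ndufs6 and Mrpl34 in each retained library, ER ribosome-bound groups left and whole-cell groups right, with mean ± SD beside the points. Mrpl36 sits at 38.4 to 41.3 CPM in Nmd3 ER libraries, below the 51.8 to 58.1 CPM of the other ER libraries.

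After Gnl3 siRNA 1 member fell and 0 rose, where 1.17% of genes fell and 1.51% rose. Mrpl34 had 58.4, 62.0 and 58.0 CPM in Gnl3 ER libraries, against 74.2 and 68.5 CPM in scramble ER libraries, with no overlap. Its log2 fold change was -0.26 (SE 0.06, adjusted p = 0.0228), and the call was lost when Gnl3 ER replicate 1, Gnl3 ER replicate 3 or either scramble ER library was left out (adjusted p = 0.0858 to 0.473). After Nmd3 siRNA it had 63.2, 61.6 and 65.5 CPM, a log2 fold change of -0.17 with an adjusted p of 0.276. In whole-cell RNA it averaged 45.5 ± 0.254 CPM after Gnl3 siRNA (SD, n = 2) and 44.5 ± 3.09 CPM with scramble siRNA (SD, n = 3).

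Most values of the family after Gnl3 siRNA were below 0, and all but that of Mrpl34 missed the test. On ER ribosomes 68 of 78 members (87.2%) had a log2 fold change below 0, with a median of -0.08, where 50.5% of all genes tested were below 0 with a median of 0.00. Among protein-coding genes within the members' range of coding lengths 54.9% were below 0, with a median of -0.02. Mrps18c was at -0.24, Mrpl58 at -0.21, Mrpl11 at -0.15, Mrpl41 at -0.14 and Mrpl12 and Mrps34 at -0.13, and none of these passed the test. Cytosolic ribosomal proteins had 78 of 78 values below 0, with a median of -0.10 and 7 that fell, and respiratory chain subunits a median of -0.08 with 1 that fell. After Nmd3 siRNA 50 of 78 members (64.1%) were below 0, with a median of -0.02. Below 0 were 49.5% of all genes tested (median 0.00) and 52.8% of protein-coding genes within the members' range of coding lengths (median -0.01). Mrpl41 at -0.16 and Mrps2 at 0.13 were the outermost role members beside Mrpl36. Both knockdowns were set against the same 2 scramble libraries. Set against each other, Nmd3 over Gnl3 siRNA, the members had a median log2 fold change of 0.07, and Mrpl36 was the sole member called, beside 0.987% of genes called higher and 1.21% lower.

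Nmd3 ER replicate 2 bears on these counts. Without it 6 members fell after Gnl3 siRNA, beside 2.92% of the 17549 genes tested: Mrpl34, Mrpl52, Mrps18c, Mrpl58, Mrpl17 and Mrpl12. That library belongs to neither group of this comparison, but the ER groups share 1 estimate of the spread. This coefficient of variation was 0.0413 without the library and 0.0649 with it, and the log2 fold change of Mrpl34 was -0.26 in both fits. In that fit 2 fell after Nmd3 siRNA, Mrpl36 at -0.57 and Mrpl38 at -0.24, beside 0.957% of genes. For Nmd3 over Gnl3 siRNA 4 rose, Mrpl58, Mrps15, Mrpl15 and Mrpl42, and Mrpl36 fell, beside 1.76% and 2.25% of genes.

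In whole-cell RNA no member was called in any of the 3 comparisons, by edgeR or by DESeq2. Of the 17490 genes tested, edgeR called 0.166% for Nmd3 against scramble, 0.812% for Gnl3 against scramble and 0.212% for Nmd3 against Gnl3. At an unadjusted p under 0.05 the members counted were 7, 3 and 5 of 78 by edgeR and 5, 1 and 3 by DESeq2. For Nmd3 against scramble, edgeR counted 1694 of all 17490 genes at that threshold, a share close to that of the members. The counts over all genes for the other comparisons are not given here. The median log2 fold changes were 0.00, -0.01 and 0.02, and the members ranged from -0.38 to 0.20 for Nmd3 and from -0.21 to 0.19 for Gnl3 against scramble. Members of known role ran from -0.38 (Mrps36) to 0.16 (Mrpl45) for Nmd3 and from -0.10 (Mrps18b) to 0.16 (Mrpl41) for Gnl3 against scramble. The value of Mrps36 came from libraries with 11.6 and 17.1 CPM after Nmd3 siRNA, against 17.9, 18.3 and 20.1 CPM with scramble siRNA. With Nmd3 whole-cell replicate 1 as the sole Nmd3 sample 9 members were called against scramble, 8 of them lower, Mrpl42 at -0.60 and Mrps11 at -0.63 among them, beside 2.35% of genes called higher and 3.35% lower, and without replicate 1 the count was 0.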

How the data were processed

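The deposited files hold raw counts per gene and library. Per the submitters' processing notes, STAR 2.7.9a, HTSeq 0.11.2 and DESeq2 were used with GRCm39; the annotation release and the strand setting are not given in the sources used here. HTSeq's 5 lines that name no gene stayed out of all totals (reads in no feature were 47.4% to 48.3% of the lines' and genes' sum in the 15 libraries used). Symbols were joined by gene ID from a gene name table, and coding lengths and sequences from GENCODE M21 (GRCm38), so no coordinates are given. Counts were fitted with edgeR 4.0.16 in R 4.3.3 (filterByExpr, TMM, robust quasi-likelihood F test, Benjamini-Hochberg adjustment over all genes tested, threshold 0.05): 1 fit of 15 libraries for ER against whole-cell RNA, 1 of the 8 ER libraries and 1 of the 7 whole-cell libraries. The fits were tested on simulated data. A log2 value is the fitted fold change of scaled counts, a CPM a count scaled by the TMM-adjusted library size, with no pseudocount, and an SE comes from the F statistic. Libraries whose labels exclude them stayed out and were added back as an alternative. Length corrections took each library's lowess trend (span 0.3) with length off as an offset. DESeq2 1.42.0 was the other tool.

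Same-numbered ER and whole-cell libraries come from 1 lysate by design, though their deviations from group means correlated at only -0.03 to 0.02; the 6 complete pairs were fitted as a block among the alternatives. Named genes were the outermost called members (up to 6 at either end of each comparison), 19 members of known role, the extremes of level and the mitochondrial ribosome proteins outside the symbol rule. Members and lists were chosen with earlier results of these data known. P-values measure the spread between the labelled biological replicates of 1 cell line, which may be partly technical.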

Additional observations from a re-analysis of the deposited data

Results flagged for a closer look

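Mrpl36 differed between the knockdowns on ER ribosomes. The direct test of Nmd3 against Gnl3 siRNA gave a log2 difference of -0.41 (SE 0.06, edgeR adjusted p = 2.13e-04), with 38.8, 41.3 and 38.4 CPM after Nmd3 siRNA and 52.3, 53.7 and 51.8 CPM after Gnl3 siRNA.

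A library outside the comparisons also carried an unusual level of the family. In Nmd3 whole-cell replicate 2, which its label excludes, the members made up 0.766% of gene counts, against 0.455% to 0.476% in scramble whole-cell libraries. There 75 of 78 members lay above all 3 scramble whole-cell libraries, with a median log2 difference of 1.26 from their mean, and Mrpl52 stood at 2.38. In Gnl3 whole-cell replicate 3, also excluded, 25 members lay above and 47 below all 3, with a median of -0.18, and Mrps12 stood at -2.49. The share of all genes outside the scramble range is not given here, so these counts alone do not set the family apart. Outside the family, in Nmd3 whole-cell replicate 2, Ndufs6 had 317 CPM, against 69.6 to 77.8 in scramble whole-cell libraries. Ptcd3 had 82.8 CPM there, against 91.6 to 96.8. These log2 and CPM values rest on a TMM scaling of all 17 libraries, while the percents are of unscaled gene counts.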

How the results depend on the processing

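Adding the 2 excluded libraries back changed most. Members called came to 1 (Nmd3), 2 (Gnl3) and 1 (scramble) for ER against whole-cell RNA, with medians of -0.20 (Nmd3) and 0.34 (Gnl3). The median difference in ratio became -0.56 for Nmd3 and -0.01 for Gnl3 minus scramble, and the whole-cell medians 0.54 (Nmd3 against scramble), -0.04 (Gnl3 against scramble) and 0.54 (Nmd3 against Gnl3). After Nmd3 siRNA Mrpl23 turned to -0.06, Mrpl10 to -0.17, Mrpl13 to -0.50, Mrpl37 to -0.16, Mrpl39 to -0.01 and Mrps17 to -0.41, after Gnl3 siRNA Mrps35 to -0.03, and Mrpl36 in whole-cell RNA to 0.16. Library totals without TMM gave a Gnl3 median of 0.34.

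The coding length correction left 26, 15 and 22 members called (Nmd3, Gnl3, scramble; medians 0.07, 0.06 and 0.09), and the mRNA length correction, chosen after seeing the data, 34, 29 and 29 (medians 0.05, 0.03 and 0.03) with a Gnl3 minus scramble difference of -0.03. With scramble siRNA the coding length correction turned Mrpl10 to -0.09, Mrpl18, Mrpl49 and Mrps10 to -0.11, Mrpl45 to -0.01, Mrps27 to -0.06 and Mrps36 to -0.03. The mRNA length correction turned Mrpl10 to -0.12, Mrpl18 to -0.17, Mrpl44 to -0.09, Mrpl49 and Mrps34 to -0.03, Mrps10 to -0.23, Mrps18b and Mrps31 to -0.11, Mrps27 to -0.22, Mrps36 to -0.13, Mrpl19 to 0.17 and Mrpl48 to 0.05. After Nmd3 siRNA the coding length correction turned Mrpl10 to -0.04, Mrpl13 to -0.06 and Mrps17 to -0.11, and the mRNA length correction Mrpl10 to -0.06, Mrpl13 to -0.10 and Mrpl37 to -0.13. After Gnl3 siRNA these were Mrpl11 and Mrpl22 at -0.05 and Mrps17 at -0.08 (coding length), and Mrpl22 at -0.17, Mrpl37 at -0.11 and Mrpl38 at -0.09 (mRNA length). The cause was not tested.

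The replicate block gave 58, 51 and 62 ER against whole-cell calls (Nmd3, Gnl3, scramble) where the fit without it gave 58, 53 and 63, and it turned Mrps27 to -0.01. With the coding length correction the block gave 28, 17 and 19 (medians 0.07, 0.06 and 0.08) and a Gnl3 minus scramble difference of -0.03. There Mrpl10 was at -0.08, Mrpl18 at -0.10, Mrpl45 at -0.00, Mrpl49 and Mrps27 at -0.09, Mrps10 at -0.13 and Mrps36 at -0.05 with scramble siRNA, Mrpl10 at -0.04, Mrpl13 at -0.06 and Mrps17 at -0.09 after Nmd3 siRNA, and Mrpl11 at -0.05, Mrpl22 and Mrps17 at -0.07 after Gnl3 siRNA. Knockdown and scramble libraries share only a number (deviations correlated at -0.05 to 0.04), and with the block 0 members were called for Gnl3 against scramble on ER ribosomes, with Mrpl34 at an adjusted p of 0.0851.

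Leaving out 1 library at a time gave 50 to 58 (Nmd3), 44 to 54 (Gnl3) and 54 to 63 (scramble) ER against whole-cell calls, with medians of 0.30 to 0.35, 0.27 to 0.31 and 0.35 to 0.39. The differences in ratio gave 0 to 4 calls for Nmd3 (median -0.06 to 0.01) and 0 for Gnl3 (-0.11 to -0.06). On ER ribosomes calls ran from 1 to 2 for Nmd3 against scramble (-0.05 to -0.01), 0 to 6 for Gnl3 against scramble (-0.11 to -0.06) and 1 to 5 for Nmd3 against Gnl3 (0.05 to 0.08). In whole-cell RNA they ran from 0 to 9 for Nmd3 against scramble (-0.02 to 0.03), stayed at 0 for Gnl3 against scramble (-0.03 to 0.02) and ran from 0 to 6 for Nmd3 against Gnl3 (-0.01 to 0.04). Mrps27 was at -0.01 and -0.00 without whole-cell scramble replicates 1 and 3. A group left with 1 library was assumed to vary like the others.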
